A study of Mus musculus with 1824 samples.

Results

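Endothelial cells, the cells that line vessels and the inside of the heart, were described here in chimaeric mouse embryos at 2 stages of early development. They were chosen by read counts alone: a cell belonged to them if it had at least 100000 reads, at least 3 of *Cdh5*, *Pecam1*, *Tie1*, *Tek* and *Esam* at 20 CPM (counts of a gene per 1000000 reads of the cell) or more, and fewer than 3 of the blood genes *Runx1*, *Gfi1b*, *Itga2b*, *Lyl1*, *Myb* and *Nfe2* at that level. Of 1824 sequenced wells, 1649 had at least 100000 reads, and the rule found 12.7% of them (11.1 to 14.4, 95% Clopper-Pearson interval). There were 78 endothelial cells at embryonic day 7.5 (E7.5), which is 8.16% of the cells of that stage. At E8.5 there were 64, 43 and 24 on plates 3, 4 and 6, together 18.9%. Since the rule read the same counts, the 11 rule genes are not findings, and every difference from other cells is given as a description with no test.

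The study made chimaeras to follow cells that lack TET enzymes, which oxidise methylated cytosine, beside host cells in the same embryo. Embryonic stem cells lacking *Tet1*, *Tet2* and *Tet3* and carrying a tdTomato-tagged histone under the CAG promoter were injected into C57BL/6J blastocysts, and these were transferred to CD1 recipients. The labels give the strain as CD1 and the tissue as E7.5 or E8.5 embryo for each cell. They give no genotype and no sort gate for single cells, so both stages hold an unknown mixture of host and knockout cells, and no comparison of genotypes was made. Embryos were pooled before sorting by the study's methods, and an animal is named only for 4 E7.5 embryos with 1 plate each. Each stage was therefore treated as 1 sample, plates of 96 wells served as technical units, and the range over plates is given as the spread. Cells had been stained for KDR and CD41, the product of *Itga2b*, before the sort, so RNA of these genes touches the gate.

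Endothelial cells arise from mesoderm that expresses *Kdr*, the main receptor for vascular endothelial growth factor (VEGF). ETS-family transcription factors such as ETV2, FLI1 and ERG, and SOX factors of the F group, are known to switch on their genes. Some embryonic endothelium is haemogenic, which means that it gives rise to blood cells after switching on *Runx1* and *Gfi1b*. Arterial, venous and endocardial cells later differ by Notch signalling, by ephrin and Eph proteins and by NR2F2.

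Promoters were shown for *Tie1* and *Tek*, receptor tyrosine kinases of the angiopoietin system and the rule genes with a listed promoter, and for *Stab2* and *Clec14a*, 2 genes of single-cell variation described further on. They are the 250 bases before the RefSeq start on GRCm38.p6, written 5′ to 3′ on the strand of the gene. *Tie1* lies at chr4:118489850-118490099 (minus strand), *Tek* at chr4:94739039-94739288 (plus strand), *Stab2* at chr10:87007943-87008192 (minus strand) and *Clec14a* at chr12:58269259-58269508 (minus strand). Capitals mark GGAAG or its reverse complement CTTCC, a form of the motif that ETS factors read. Forms of that motif without GGAAG were not marked.
Tie1: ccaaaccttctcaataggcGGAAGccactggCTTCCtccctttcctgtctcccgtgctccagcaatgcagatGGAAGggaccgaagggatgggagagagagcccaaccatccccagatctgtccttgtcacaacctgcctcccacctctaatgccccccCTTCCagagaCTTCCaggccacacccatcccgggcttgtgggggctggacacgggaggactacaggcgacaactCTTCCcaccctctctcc
Tek: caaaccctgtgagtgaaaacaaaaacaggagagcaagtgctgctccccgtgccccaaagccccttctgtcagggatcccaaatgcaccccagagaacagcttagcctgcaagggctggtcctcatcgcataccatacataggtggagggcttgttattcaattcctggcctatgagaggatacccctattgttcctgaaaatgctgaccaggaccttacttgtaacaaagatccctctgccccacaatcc
Stab2: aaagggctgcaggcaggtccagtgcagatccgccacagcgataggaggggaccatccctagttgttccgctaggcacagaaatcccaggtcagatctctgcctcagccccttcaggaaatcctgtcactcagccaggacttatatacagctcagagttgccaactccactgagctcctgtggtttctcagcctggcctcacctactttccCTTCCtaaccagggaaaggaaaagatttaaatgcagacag
Clec14a: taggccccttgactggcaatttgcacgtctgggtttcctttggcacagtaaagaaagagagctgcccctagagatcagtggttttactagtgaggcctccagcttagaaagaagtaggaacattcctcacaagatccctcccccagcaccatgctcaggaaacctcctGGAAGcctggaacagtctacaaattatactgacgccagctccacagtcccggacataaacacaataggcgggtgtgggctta

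Counting both strands, the *Tie1* window held 6 matches to GGAAG and the *Tek* window 0, while *Stab2* and *Clec14a* held 1 each. Other forms of the ETS motif were not counted, so a count of 0 does not show that a window has no ETS site. Of all 32851 windows of this length, 64.1% held at least 1 GGAAG and 0.965% held 5 or more. Across the surface, junction, VEGF and angiopoietin lists, 22 of 35 genes were matched, with 27 windows. The VEGF and angiopoietin list, ligands included, took the place of the endothelial transcription factors that were planned. Of these windows, 74.1% held GGAAG and 29.6% the longer CAGGAAG, against 10.8% of all windows for the latter. Both strands were searched, also for GATAAG, which GATA factors read. CAGGAAG and CCGGAAG contain GGAAG and so overlap it. CCGGAAG was in none of the 27 windows and in 6.91% of all, and GATAAG in 1 of 27 and 6.55% of all. *Cdh5*, *Pecam1*, *Esam*, *Lyve1* and *Plvap* were among the genes with no listed window.

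Endothelial cells were unevenly spread over plates. At E7.5, lane plate 2 held 53 of 89 cells (59.6%, 48.6 to 69.8), lane plate 3 held 14 of 84, lane plate 4 held 5 of 83 and lane plate 1 held 4 of 93. Embryos 2 and 4 gave 1 cell each, and embryos 1 and 5 gave 0 of 92 and 0 of 88. At E8.5, plate 3 held 64 of 83 cells (77.1%, 66.6 to 85.6), plate 4 held 43 of 82 and plate 6 held 24 of 92. The remaining E8.5 plates held none. On the 10 plates without any, a count of 0 allows a share of up to 3.19% to 4.62%, taken as 3 cells of the total rather than as the upper end of such an interval. Shares describe the sorted wells and not the embryo. The intervals cover counting error of cells only, and not the spread between plates or embryos.

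**Figure D1:**
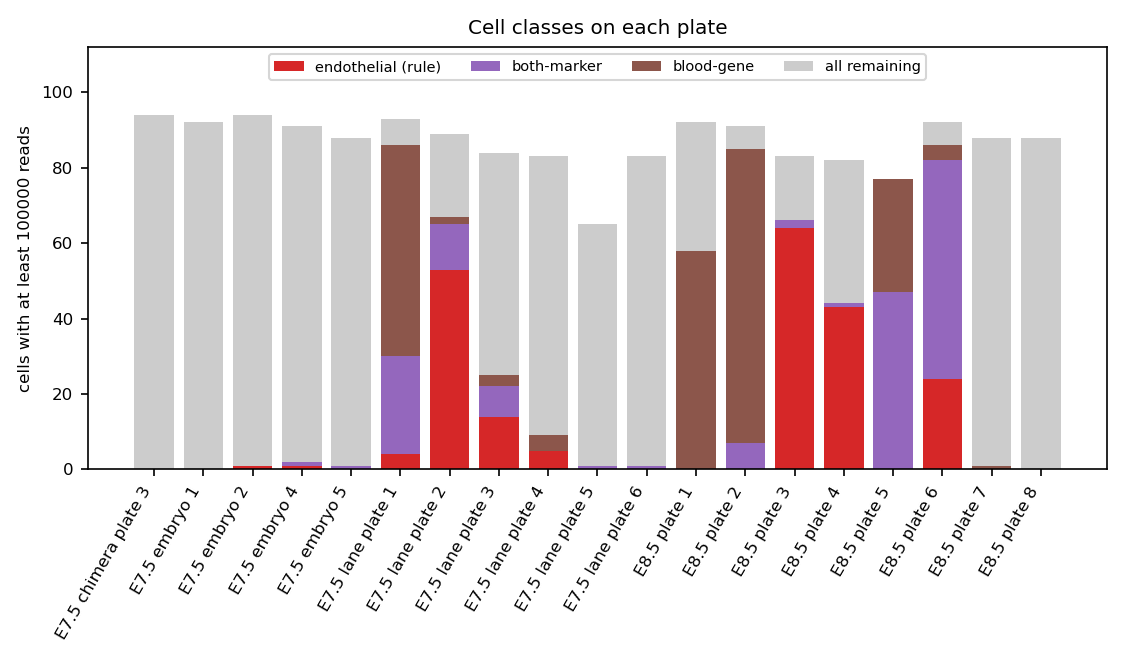
Cells with at least 100000 reads on each of 19 plates, as stacked bars of counts: endothelial cells, both-marker cells (at least 3 endothelial and 3 blood genes of the rule), blood-gene cells (at least 3 blood genes and fewer than 3 endothelial genes) and all remaining cells. Endothelial cells reach 64 on E8.5 plate 3 and 53 on E7.5 lane plate 2, and 10 plates hold none.

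All 5 endothelial rule genes were at 20 CPM or more in 80.4% of the endothelial cells, 4 in 25 cells and 3 in 16. Median levels over cells were 314.3 CPM for *Cdh5* (VE-cadherin, the adherens junction protein of endothelium), 223.97 for *Pecam1*, 285.6 for *Tie1*, 332.5 for *Tek* and 874.3 for *Esam*, and each was at 0 in at least 1 cell. *Kdr*, which the rule did not use, was at 20 CPM or more in every endothelial cell, with a median of 1134 CPM, against 37.6% of the 1440 other cells. *Egfl7*, a secreted protein of vessels, was also at that level in every endothelial cell, against 66.1% of other cells. *Kdr* was one of the markers of the sort, so its level is not independent of how the cells were collected.

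At the limits of the rule, levels of the rule genes are given as a description, since the rule fixes their order. The 16 cells with exactly 3 endothelial genes had a median summed level of the 5 genes of 430.5 CPM, and the 21 cells left out with exactly 2 had 193.1 CPM. *Kdr* was at 20 CPM or more in 19 of these 21. On the blood side, 36 endothelial cells had 0, 70 had 1 and 49.3% had 2 of the 6 blood genes, mostly *Lyl1* and *Itga2b*, in 98 and 96 cells. The 30 cells left out with exactly 3 blood genes and at least 3 endothelial genes had a median summed level of the 6 blood genes of 363.2 CPM, against 269.7 CPM in the cells just inside with 2.

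Reads per endothelial cell ran from 100941 to 6162793, with stage medians of 815008 and 525111, and together they summed to 170972539 reads. Lane plate 3 was the deepest, with a median of 2630584. After thinning each cell to 100000 reads, the median of detected genes in endothelial cells was 6414 at the earlier stage and 6500 at the later, against 7088 and 6407 in other cells.

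Some wells also held markers of other cell types, and 20 endothelial cells had at least 3 genes of another list at 20 CPM or more. Erythroid genes (10 listed, such as the embryonic globin *Hba-x*) reached 3 or more in 11 cells, and their summed level ran from 0 through a median of 9.72 to 972.1 CPM, against a highest value of 375280 CPM in other cells. Allantois and extraembryonic mesoderm genes reached 3 of 6 in 7 cells, with a highest sum of 1397 CPM. The cell with that sum had no read of *Tie1* or *Esam* and lay on E7.5 lane plate 4, which held 5 endothelial cells. Another of these 5 had 3 erythroid genes, so the values of this plate rest on few cells. Nascent mesoderm, epiblast and cardiac genes reached 3 in 0 cells. Endoderm genes reached 3 of 6 in 3 cells, and 1 cell of E8.5 plate 6 summed to 28662 CPM, with *Afp* at 14201 CPM. That cell held 95.7% of all *Afp* reads of endothelial cells at E8.5, and without it their level fell from 258.4 to 11.3 CPM. No stage difference of endoderm genes is described for that reason.

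Against all other cells, the level of each class was the reads of a gene summed over cells over all reads of the class, in CPM, and the log2 ratio used a pseudocount of 1 CPM, which understates low genes. A gene was called higher or lower when it had at least 10 CPM in either class, a ratio of at least 2-fold, and the same sign on all 6 plates with at least 5 endothelial and 5 other cells. Those were E7.5 lane plates 2, 3 and 4 and E8.5 plates 3, 4 and 6. Of 9930 genes with at least 10 CPM, 5.88% were called higher and 2.76% lower, and the median log2 ratio was -0.10. The rule for members used this contrast, so these shares stand as background only. The lower share was 4.17% without E8.5 plate 6, 4.15% without the 20 cells that held other markers and 8.73% in E7.5 cells alone, where 8.95% were higher. These settings also left fewer plates on which the sign had to be the same.

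Genes of endothelial junctions and surface were the clearest group. Of 22 listed genes, 21 passed 10 CPM and 20 were called higher, beside 5.88% of all genes. Over the 21, the median log2 ratio was 3.90. *Cldn5* was at 832.2 against 11.1 CPM (log2 ratio 6.10, 3.09 to 7.31 within plates), and it encodes the tight junction protein claudin 5. Its endothelial level was 845.5, 563.97 and 217.8 CPM on E7.5 lane plates 2, 3 and 4 and 1261, 629.3 and 665.4 CPM on E8.5 plates 3, 4 and 6. All 6 values exceeded the level in the other cells of the same plate, and *Cldn5* was at 20 CPM or more in 84.7% of endothelial cells. *Emcn* was at 267.4 against 2.74 CPM (log2 ratio 6.17, 2.17 to 6.74 within plates), and encodes the sialomucin endomucin. *Plvap* was at 965.7 against 21.6 CPM (log2 ratio 5.42, 2.55 to 8.11 within plates), and encodes the diaphragm protein of fenestrae. *Icam2*, *Mmrn2*, *Clec14a*, *Cd93* and *Ramp2* had log2 ratios of 5.34, 5.69, 5.68, 4.97 and 4.29. *Podxl*, the sialomucin podocalyxin, was the tested member not called, at 139.5 CPM against 176.2 in other cells, and *Jam2* was below 10 CPM in both.

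Over all genes, the 10 called genes with the largest ratio were *Stab2* (7.21), *Klhl4* (6.24), *Emcn*, *Cldn5*, *Stab1* (6.02), *Gpr182* (5.90), *Mmrn2*, *Clec14a*, *Plvap* and *Mrc1* (5.37). *Stab1*, *Stab2* and *Mrc1* encode scavenger receptors that are also known from sinusoidal endothelium, and *Gpr182* a G protein-coupled receptor of endothelium. *Klhl4* is a kelch-family gene and was at 438.7, 201.9 and 183.1 CPM on E7.5 lane plates 2, 3 and 4 and 252.98, 176.8 and 113.9 CPM on E8.5 plates 3, 4 and 6. It was above the other cells by a log2 ratio of at least 3.76 on each of these plates.

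Receptors of the VEGF and angiopoietin systems were higher, and most ligands were low. Of 13 listed genes, 9 passed 10 CPM, 6 were called higher and 1 lower, beside 5.88% and 2.76% of all genes. *Kdr* was at 1239.99 against 187.3 CPM (log2 ratio 2.72, 0.27 to 3.51 within plates). *Flt1* was at 536.6 against 39.3 CPM (log2 ratio 3.74, 1.88 to 5.11 within plates), and encodes VEGF receptor 1. *Flt4* was at 333.3 against 14.7 CPM (log2 ratio 4.41, 1.36 to 6.36 within plates), and encodes VEGF receptor 3. *Ptprb*, the phosphatase that acts on TEK, had a ratio of 4.67, and the co-receptors *Nrp1* and *Nrp2* had 1.92 and 1.88. With plates weighted equally both neuropilin calls were lost, at 0.91 for *Nrp1* and 0.54 for *Nrp2*. The *Nrp1* call was also lost with other cells from the same plates only and without the cells that held other markers. Of the ligands, *Vegfa* was at 5.27 against 4.66 CPM and *Pgf* at 0.0643 against 3.58 CPM. *Vegfb* was at 13.4 against 20.6 CPM and not called, and *Angpt2* at 8.12 against 4.22 CPM. *Vegfc* was at 24.5 against 6.48 CPM with both signs within plates. Against both-marker cells, described further on, *Vegfc* was called higher at a log2 ratio of 1.42. *Angpt1*, the agonist of TEK, was called lower at 0.766 against 11.03 CPM. That call was lost in 4 of 20 alternative settings, among them other cells from the same plates only.

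**Figure D2:**
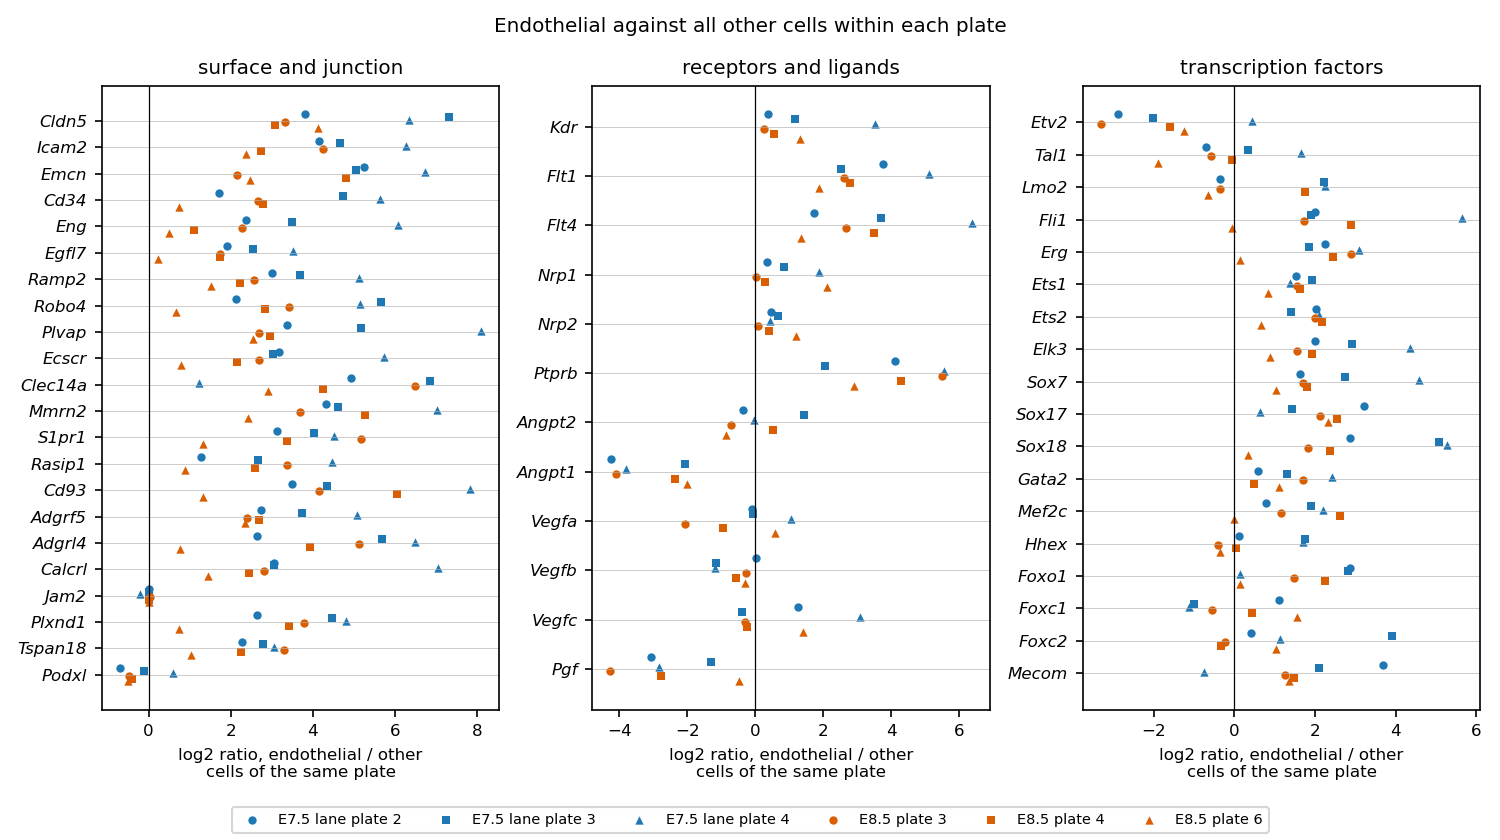
Log2 ratios of CPM, endothelial over other cells of the same plate (x axis, pseudocount 1 CPM), for 3 gene lists (y axis), with 1 point for each of 6 plates, blue for E7.5 and orange for E8.5, and a line at 0. *Cldn5* lies at 3.09 to 7.31 and *Etv2* at -3.32 to 0.45.

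Transcription factors split. Of 18 listed, 17 passed 10 CPM and, beside 5.88% of all genes, 9 were called higher. These were the ETS factors *Erg*, *Ets1*, *Ets2* and *Elk3* (log2 ratios 2.97, 2.69, 2.07 and 3.80), the SOX F genes *Sox7*, *Sox17* and *Sox18* (3.94, 2.75 and 4.36), *Gata2* (1.95) and *Foxo1* (1.86). *Fli1*, with a ratio of 2.82, missed the call through a log2 ratio of -0.06 on E8.5 plate 6. *Etv2*, which acts at the start of the haemato-endothelial lineage, was at 38.2 against 31.1 CPM and was not called, with ratios within plates from -3.32 to 0.45. It was at 20 CPM or more in 86 endothelial cells, with a median of 1.53 CPM and a highest value of 569.2. *Tal1* and *Lmo2*, which are shared with blood, were at 77.6 against 69.4 and 138.4 against 63.99 CPM, with plates on both sides of 0. The other cells on these plates were not the same mixture, since those of E8.5 plate 6 were mostly both-marker cells, 58 of 68.

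Of the basement membrane, more genes were called than not. Beside 5.88% of all genes, 6 of 10 listed were called higher. They were the collagen IV chains *Col4a1* and *Col4a2* (2.41 and 2.44), *Nid1* (3.19), *Hspg2* (3.06), *Lama4* (3.43) and *Sparc* (2.45). The other laminin chains *Lama5*, *Lamb1* and *Lamc1* were not called, at -1.70, 0.83 and 0.11. Of 12 BMP and TGF-beta genes, 11 passed 10 CPM and 3 were called higher, namely the receptors *Acvrl1* (4.59), *Eng* (3.90) and *Tgfbr2* (3.48). The *Acvrl1* ratio lay above all of its ratios within plates, which ran from 1.36 to 2.96, as did those of *Lama4* (0.21 to 2.57) and the ETS factor *Ets1* (0.84 to 1.94). *Id3*, a target of BMP signalling, was at 801.5 against 345.98 CPM with 1 plate below 0, and the ligand *Bmp4* was at 48.8 against 65.03 CPM.

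In the Notch list, 3 of 11 tested genes were called higher, beside 5.88% of all genes. *Dll4* was at 131.2 against 2.54 CPM (log2 ratio 5.22, 2.58 to 5.88 within plates), and encodes the Notch ligand of arterial endothelium. *Notch1* and *Notch4*, its receptors in vessels, had ratios of 2.70 and 4.04. *Notch2* and *Notch3* were at 30.1 against 72.9 and 13.2 against 16.995 CPM and were not called. In the arterial list, *Dll4*, *Gja4* (4.71) and *Acvrl1* were called among 8 tested genes. In the list of venous and lymphatic genes, *Ephb4*, *Aplnr*, *Stab1*, *Stab2* and *Lyve1* were called among 8. The venous factor *Nr2f2* was not called. The call of *Ephb4* (1.33) was lost with plates weighted equally and in E7.5 cells alone.

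Of the lists of other lineages, lower calls were made for 2 of 3 tested cardiac genes, 1 of 6 nascent mesoderm genes and 1 of 4 allantois genes. None of 5 epiblast, 5 endoderm and 10 erythroid genes was called lower, beside 2.76% of all genes. Their pooled levels were still lower, with median log2 ratios of -5.45, -2.31 and -6.69 in that order. A missing call thus does not mean a similar level. Among the called genes with the smallest ratios were *Crabp2* (-5.61), *Actc1* (-5.20), *Dll3* (-5.07) and *Lum* (-4.83). *Crabp2* binds retinoic acid, and *Actc1* encodes cardiac actin. The epiblast factor *Pou5f1* was at 0.415 CPM against 143.2, and *Mixl1* of nascent mesoderm at 0.333 against 167.8. Neither was called, since the same sign on all 6 plates was required. On E8.5 plate 6 neither class of cells held a read of either gene, and *Pou5f1* was higher in endothelial cells on E8.5 plate 3. *Pdgfra* of mesoderm was called lower, at 4.87 against 58.9 CPM.

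Enzymes that write or oxidise DNA methylation showed no called difference from other cells. *Dnmt1*, the maintenance methyltransferase, was at 194.9 against 164.01 CPM, and its partner *Uhrf1* at 359.4 against 350.5. *Dnmt3b*, a de novo methyltransferase, was at 136.2 against 573.5 CPM (log2 ratio -2.07), but within plates the ratio ran from -0.94 to 0.84. The transcripts *Tet1*, *Tet2* and *Tet3* were at 30.5, 49.8 and 67.98 CPM against 68.7, 21.5 and 36.4, in cells whose genotype is not labelled. Of 8 cell cycle genes, beside 2.76% of all genes, *Ccnd2* was called lower, at 118.1 against 283.7 CPM. Its call was lost without E7.5 lane plate 3 (log2 ratio -0.88), and *Mki67* and *Top2a* had ratios of -0.48 and -0.32.

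The both-marker cells, 10.01% of the cells with at least 100000 reads, carried at least 3 endothelial genes and at least 3 blood genes. This comparison was added after the cells per plate were counted, because no plate held 5 endothelial and 5 blood-gene cells. It rests on 3 plates, E7.5 lane plates 2 and 3 and E8.5 plate 6. Of 9604 genes, 7.99% were called higher in endothelial cells and 3.26% lower. Blood genes of the rule are lower by construction. Among genes the rule did not use, *Gja5*, a connexin of arteries, had the largest ratio among called genes, at 65.2 against 0.388 CPM (log2 ratio 5.58, 0.14 to 7.02 within plates). On E7.5 lane plate 3 no endothelial cell reached 20 CPM of it. *Npr3*, a natriuretic peptide receptor known from endocardium, was at 49.96 against 0.310 CPM (0.04 to 4.42 within plates), and *Stab2* at 336.3 against 10.1 CPM (1.88 to 9.02 within plates). *Igfbp3*, *Prom1*, *Mcam*, *S100a16*, *Fxyd6* and *Adcy4* had ratios between 4.07 and 4.62.

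Of 21 tested surface and junction genes, 16 were called higher in endothelial than in both-marker cells. Over all genes, 7.99% were called higher and 3.26% lower. *Cldn5* was at 76.1 CPM in both-marker cells and *Emcn* at 13.9 CPM. *Cd34* was not called, at 486.3 against 443.1 CPM. Of 17 transcription factors, 7 were called higher, 2 lower (*Tal1* and *Mef2c*) and 8 neither, among them *Fli1* and *Erg* at log2 ratios of 0.41 and 0.25. *Kdr* was at 1239.99 against 356.5 CPM, and its call was lost at a log2 ratio of 0.94 with plates weighted equally. Of 10 listed erythroid genes, 8 passed 10 CPM and 5 were called lower in endothelial cells, led by the globin *Hbb-bh1* at 8.76 against 1357 CPM and the erythroid factor *Gata1* at 0.0760 against 77.5 CPM. Of the haemogenic list, *Adgrg1*, an adhesion receptor of blood stem cells, and *Cbfa2t3*, a corepressor, were called lower, at log2 ratios of -5.53 and -1.21. *Gfi1* had no read in endothelial cells and was at 8.08 CPM in both-marker cells. *Dnmt3b* was lower in endothelial cells, at 136.2 against 383.5 CPM (log2 ratio -1.49, and -0.92 with plates weighted equally).

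The blood-gene cells, 14.3% of cells, had at least 3 blood genes and fewer than 3 endothelial genes. No plate held 5 cells of both classes, so calls used the pooled ratio alone, and plate and class cannot be told apart. Of 9518 genes, 2325 (24.4%) were higher in endothelial cells and 7.72% lower. With TMM factors these shares were 20.002% and 13.6%, with DESeq2 size factors 21.9% and 11.3%, and with haemoglobin reads taken out of library totals 21.8% and 10.3%. The median log2 ratio moved from 0.14 to -0.15 with TMM. The globins *Hba-x*, *Hbb-y* and *Hbb-bh1* were at 4.85, 3.85 and 8.76 CPM in endothelial cells and 34338, 25635 and 37162 in blood-gene cells. *Cldn5*, *Lyve1* and *Stab2* were at 0.533, 0.366 and 0.0834 CPM in blood-gene cells. Against both-marker cells the log2 ratio of *Lyve1* was 1.55, and that call was lost with means of cell CPM. *Tal1* was at 77.6, 159.4 and 233.4 CPM in endothelial, both-marker and blood-gene cells, and *Lyl1* at 73.2, 146.1 and 93.2. *Kit*, a receptor of haemogenic endothelium and blood progenitors, was highest in the both-marker cells, at 198.3, 330.96 and 54.6 CPM.

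**Figure D3:**
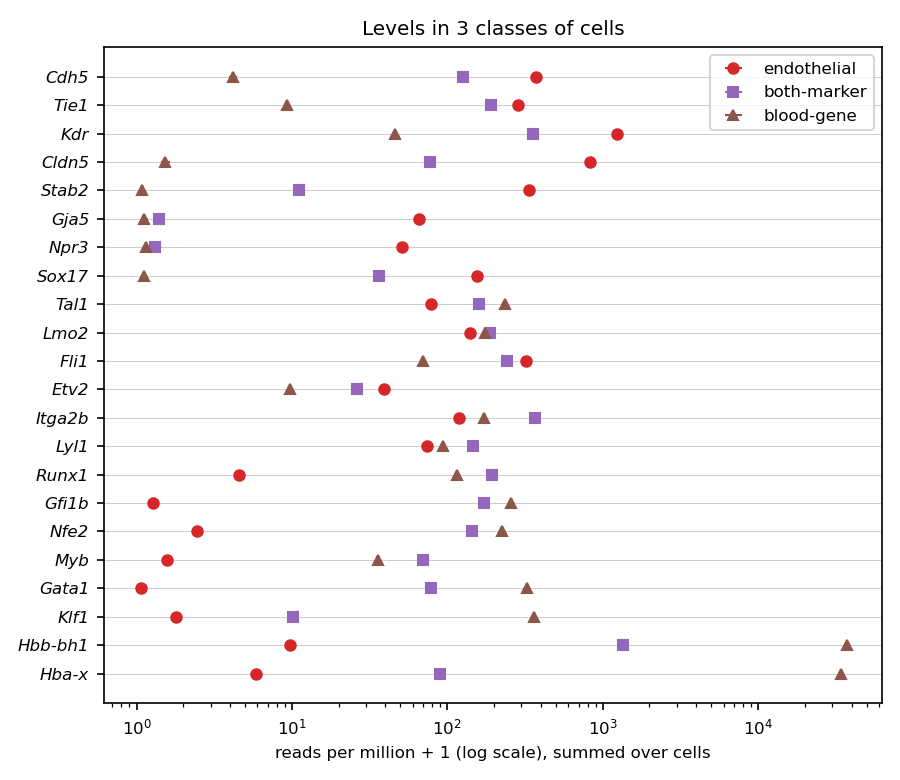
CPM plus 1 on a log axis (x) for 22 genes (y) in endothelial, both-marker and blood-gene cells. Reads are summed over cells, with exact 95% Poisson intervals, which are mostly narrower than the symbols. They cover counting error only, because amplified reads are not independent molecules, and leave out the spread between cells and plates. *Kdr* is at 1239.99, 356.5 and 45.1 CPM and *Gata1* at 0.0760, 77.5 and 326.3 CPM in that order of classes.

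Endothelial cells varied among themselves in genes of vessel subtypes. *Stab2* was at 20 CPM or more in 52 cells, 24.9% of endothelial cells, and its level ran from 0 with a median of 0 to 6136 CPM. It was seen in 18 of 53, 2 of 14 and 1 of 5 cells on E7.5 lane plates 2, 3 and 4 and in 18 of 64, 8 of 43 and 4 of 24 cells on E8.5 plates 3, 4 and 6. Each of these plates held such cells, and among other cells 0.694% reached this level. *Lyve1*, the hyaluronan receptor of lymphatic and some early endothelium, was at 20 CPM or more in 75 cells (35.9%), in 21 of 53, 2 of 14 and 1 of 5 cells on E7.5 lane plates 2, 3 and 4 and in 24 of 64, 14 of 43 and 11 of 24 cells on E8.5 plates 3, 4 and 6. Its highest value was 11384 CPM.

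*Stab2* and *Lyve1* were found together. Of the 52 cells with *Stab2*, 48 also had *Lyve1*, and of the 75 with *Lyve1*, 64% had *Stab2*. Across all endothelial cells, Pearson's r of log2(CPM + 1) was 0.83, and within stages it was 0.87 and 0.82. Cells share plates and differ in depth, so r is a description. Of the cells with *Stab2*, 51 had *Stab1*, 50 had *Mrc1*, 48 had *Gpr182* and 42 had *Clec14a*. Without regard to *Stab2*, these genes were at 20 CPM or more in 80.4%, 56.9%, 57.4% and 40.2% of endothelial cells. These pairs, and the arterial pairs that follow, were chosen after the values were seen.

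*Gja5* was at 20 CPM or more in 31 cells (14.8%), in 14 of 53, 0 of 14 and 1 of 5 cells on E7.5 lane plates 2, 3 and 4 and in 7 of 64, 7 of 43 and 2 of 24 cells on E8.5 plates 3, 4 and 6. Of these 31 cells, 27 had *Gja4*, 29 had the arterial ligand *Efnb2*, 24 had *Hey1* and 22 had *Npr3*. The venous factor *Nr2f2* was found in 7 of them. Conversely, *Gja5* was found in 31.8%, 34.3% and 32.4% of the cells with *Gja4*, *Hey1* and *Npr3*. *Efnb2* was found in 59.3% of endothelial cells, *Dll4* in 48.3% and *Nr2f2* in 34.4%. Both *Efnb2* and *Nr2f2* were at 20 CPM or more in 40 cells, 32.3% of those with *Efnb2* and 55.6% of those with *Nr2f2*. Across all endothelial cells r was 0.44 for *Gja5* with *Efnb2*, -0.22 for *Gja5* with *Nr2f2* and -0.24 for *Dll4* with *Nr2f2*. At E7.5 and E8.5, in the same order of pairs, r was 0.50 and 0.37, -0.30 and -0.15, and -0.26 and -0.22. *Stab2* and *Gja5* were both present in 14 cells, 26.9% of those with *Stab2* and 45.2% of those with *Gja5*. For this pair r was 0.15 over all endothelial cells, -0.04 at E7.5 and 0.30 at E8.5. *Aplnr*, the apelin receptor, was present in 92.3% of endothelial cells and in 26 of the 31 with *Gja5*. With each cell thinned to 100000 reads, *Gja5* was found in 14.8% and *Stab2* in 26.3%.

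**Figure D4:**
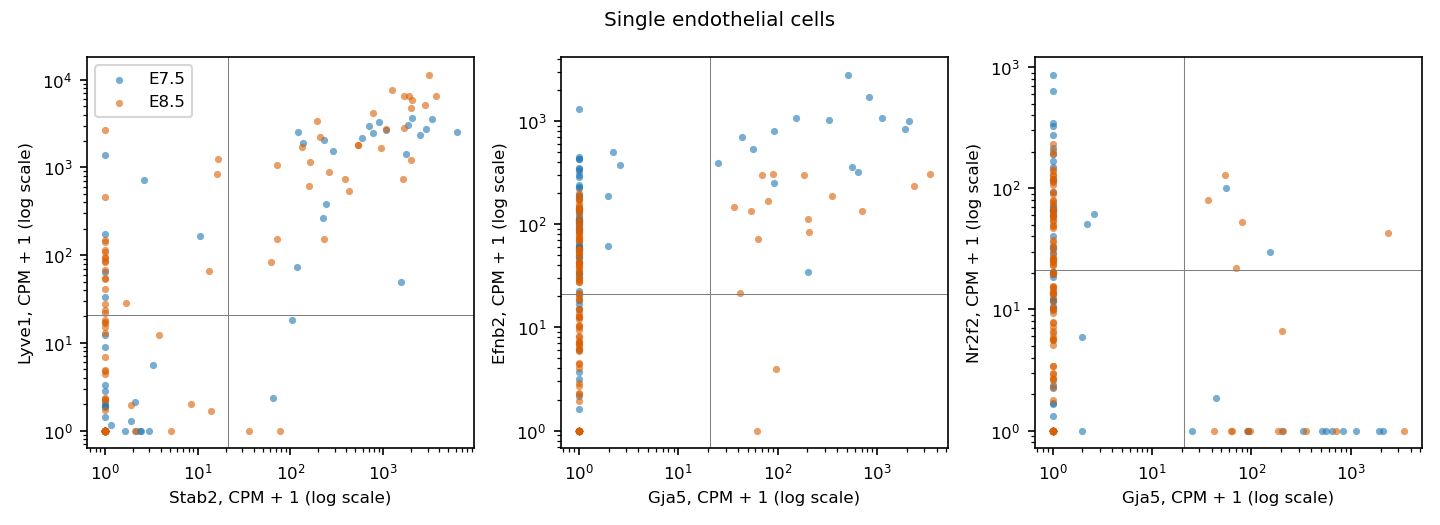
Each point is 1 endothelial cell, blue for E7.5 and orange for E8.5, with CPM + 1 of one gene on each log axis and grey lines at 20 CPM. The upper right of the left panel holds the 48 cells with both *Stab2* and *Lyve1*, that of the middle panel 29 cells with *Gja5* and *Efnb2*, and that of the right panel 7 cells with *Gja5* and *Nr2f2*.

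Between stages, endothelial cells were compared by reads summed over the cells of each stage. A gene was called when it had at least 10 CPM at either stage, a ratio of at least 2-fold, and no overlap between the 3 E7.5 plates and the 3 E8.5 plates with at least 5 endothelial cells. Of 9510 genes, 5.16% were higher at E8.5 and 4.93% lower. With TMM factors the shares were 3.31% and 6.77%, with DESeq2 size factors 4.03% and 6.10%, as the median log2 ratio moved from 0.14 to -0.03 with TMM. Leaving out E7.5 lane plate 2, which holds 53 of the 78 early cells, gave 13.1% higher and 6.91% lower. That setting also left fewer plates that had to be free of overlap. Each plate holds 1 stage, so stage and plate cannot be told apart. The paper processed some cells with scNMT-seq, which also reads DNA methylation and chromatin accessibility, and the others for RNA alone. Its cell numbers for these protocols equal the numbers of wells at E8.5 and E7.5, in that order. Stage may therefore coincide with protocol as well, and the effect of protocol was not tested.

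Of 21 surface and junction genes, *Rasip1* alone was called between stages, beside 5.16% higher and 4.93% lower over all genes. Of 17 transcription factors, 9 VEGF and angiopoietin genes and 8 venous and lymphatic genes none was called. A gene that was not called is not shown to have equal levels. *Kdr* was at 1202 CPM in the earlier and 1279 CPM in the later cells (log2 ratio 0.09). *Tek* was at 566.1, 351.5 and 308.6 CPM on E7.5 lane plates 2, 3 and 4 and 410.3, 386.7 and 246.7 CPM on E8.5 plates 3, 4 and 6. *Cdh5* was at 510.3, 206.8 and 397.2 CPM on E7.5 lane plates 2, 3 and 4 and 494.2, 237.01 and 270.4 CPM on E8.5 plates 3, 4 and 6, and for *Tek* and *Cdh5* the plates of both stages overlapped. *Rasip1*, an effector of RAS-family GTPases needed for vessel lumens, was at 116.04, 41.1 and 46.7 CPM on E7.5 lane plates 2, 3 and 4 and 137.3, 280.6 and 211.7 CPM on E8.5 plates 3, 4 and 6. Its log2 ratio was 1.22, and the call was lost without E7.5 lane plate 3 (0.75), without E8.5 plate 4 and with means of cell CPM. In other cells the ratio was 1.70.

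Of the 20 lists, 3 held genes called lower at E8.5 and the others held none, beside 4.93% of all genes. The 3 lists are described because they held calls, so their shares cannot be read as a pattern of these lists. The called genes were 2 of 11 tested Notch genes, 2 of 12 BMP and TGF-beta genes and 1 of 8 arterial genes. None was called higher in these lists. *Efnb2* was at 363.5, 76.2 and 336.6 CPM on E7.5 lane plates 2, 3 and 4 and 45.4, 59.7 and 46.7 CPM on E8.5 plates 3, 4 and 6. The early plates lay above the late ones (log2 ratio -2.10), and cells at 20 CPM or more went from 76.9% to 48.9%. Without E7.5 lane plate 2 the ratio was -0.96 and the call was lost, and in other cells the ratio was -2.30. *Smad7*, an inhibitor of TGF-beta signalling, was at 19.1, 12.8 and 12.3 CPM on E7.5 lane plates 2, 3 and 4 and 3.59, 6.13 and 0.168 CPM on E8.5 plates 3, 4 and 6. Its ratio of -1.85 was called in each of 17 alternative settings, beside -1.19 in other cells. *Notch2* had a ratio of -1.31 (42.9 to 16.7 CPM), *Bmpr2*, a BMP receptor, -1.09 (162.9 to 75.9 CPM) and *Notch3* -1.01 (17.9 to 8.36 CPM). Their ratios in other cells were -1.34, -1.17 and -0.94. The *Bmpr2* call was lost without E7.5 lane plate 2, E8.5 plate 4 or E8.5 plate 6, and the *Notch3* call without E7.5 lane plate 2 or E8.5 plate 3, with the ratios nearest 0 at -0.86 and -0.63. *Notch3* was called in 10 of 17 settings. With fewer than 2 blood genes allowed, *Efnb2*, *Notch2*, *Bmpr2* and *Notch3* were not called.

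**Figure D5:**
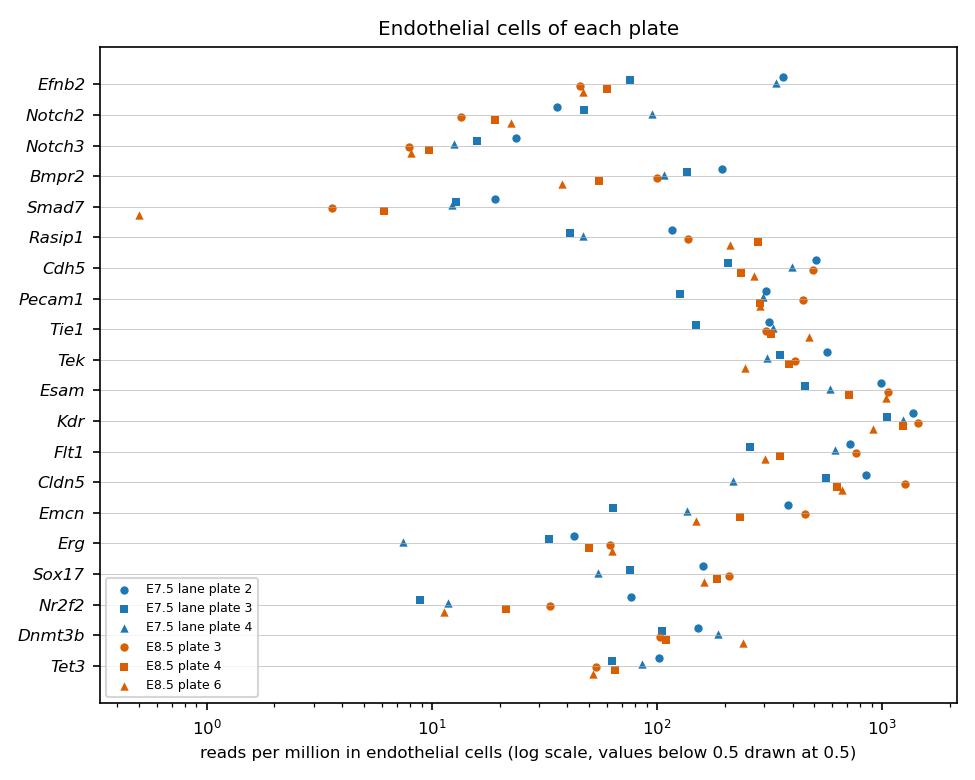
CPM on a log axis (x) of 20 genes (y) in the endothelial cells of 6 plates, blue for E7.5 lane plates 2, 3 and 4 and orange for E8.5 plates 3, 4 and 6, values below 0.5 drawn at 0.5. The top 5 genes have all blue points above all orange ones, and *Rasip1* the reverse.

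Among called genes, the largest stage ratios were of genes outside the endothelial lists. Of the 10 highest called, AC121824.2, Gm6548, Gm12009, Smt3h2-ps and AC122119.2 were processed pseudogenes, and the 5 lowest called were Gm13394 (-7.40), Rps2-ps13 (-7.09), Gm47594, Gm11361 and *Trpm2*. Of the tested genes 9070 were protein-coding, and of these 4.90% were higher and 3.75% lower. Such copies share reads with near-identical genes and the counting of shared reads is not stated, so their values are uncertain. Gm13394 and Rps2-ps13 had ratios of -6.33 and -5.47 in other cells too. Among the 10 highest were also *Tdh*, *Spink1*, *B3gnt3*, *Hspa1a* and *Tmem221*. *Hspa1a*, a heat shock gene, was at 0.757, 0 and 0 CPM on E7.5 lane plates 2, 3 and 4 and 16.01, 20.4 and 20.8 CPM on E8.5 plates 3, 4 and 6, with all late plates above all early ones, and had a ratio of 4.67 in other cells. The cell with high *Afp* held 82.1% of the E8.5 reads of *Tdh* and 90.2% of those of *Spink1*. *Tdh* was not called without E8.5 plate 6, nor was *Spink1*, and *Tmem221* was not called without E8.5 plate 4. Of protein-coding genes outside the naming rule, the next 4 were chosen after their values were seen. *Pdgfrb*, a receptor of perivascular cells, went from 19.8 to 0.251 CPM, with plates at 11.8 to 76.3 and 0 to 0.459 CPM and a log2 ratio of 0.47 in other cells. *Sfrp2*, a secreted Wnt modulator, went from 2.06 to 23.02 CPM, with plates at 0 to 4.70 and 17.1 to 33.4 CPM. The mitochondrial genes *mt-Co2* and *mt-Co3* had log2 ratios of -4.14 and -3.92, and -3.77 and -3.66 in other cells. In endothelial cells at E7.5 they reached only 38.3 and 27.3 CPM, against 1.23 and 0.872 CPM at E8.5. The median share of all mitochondrial reads in these cells differed far less, at 1.58% for E7.5 and 1.18% for E8.5. Whether the counting of shared reads affects both genes was not tested.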

How the data were processed

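The authors deposited read counts per gene and cell for 1824 Smart-seq2 libraries, which carry no molecular identifiers. Per the submitters' notes and the study's methods, single-end reads were aligned to GRCm38 with HISAT2 2.1.0 and counted with featureCounts on Ensembl release 87. The strand and multi-mapping settings are not given in the sources used here. All 55487 genes entered library sizes, and 0 columns were left without a sample.

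The rule gave 209 endothelial cells (78 and 131 by stage), beside 165 both-marker and 236 blood-gene cells, with 584 higher and 274 lower genes against all other cells, 767 and 313 against both-marker cells, 2325 and 735 against blood-gene cells and 491 and 469 between stages. Classes were compared by summed reads, as described there, with the range over plates as spread. No test was run. The members, the gene lists and the comparisons were chosen with earlier results of these data known. Named genes are the 11 rule genes, members of 20 lists, and the 10 largest and 5 smallest ratios among called genes of each comparison. One of them is not reported here. Intervals are exact Poisson or Clopper-Pearson (95%). The study's limits on mitochondrial (10%) and ribosomal (20%) reads, which 1 endothelial cell missed, were an alternative, as were thinning to 100000 reads and leaving out each plate. No doublet caller was run. Gene types came from GENCODE M21, the same build. Code was tested on simulated data. Tools were Python 3.11.15, scipy 1.17.1, edgeR 4.0.16 and DESeq2 1.42.0, the last 2 for size factors only.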

Additional observations from a re-analysis of the deposited data

How the results depend on the processing

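Endothelial cells were 12.7% of cells, 6.43% when fewer than 2 blood genes were allowed and 22.7% with no limit on them. Other settings of the rule gave 11.5% to 13.6%. The shares of genes called that follow are of the genes tested in each setting. Against all other cells (5.88% higher, 2.76% lower), genes from 1 CPM gave 3.02% lower, and E7.5 cells alone 8.95% higher and 8.73% lower. Leaving out the 20 cells with other markers, a setting added after the data were seen, gave 4.15% lower. Leaving out 1 plate gave 5.86% to 6.93% higher and 2.86% to 4.17% lower, the most without E8.5 plate 6. Between stages (5.16% higher), means of cell CPM gave 2.60%, a pseudocount of 5 CPM 3.43%, genes from 1 CPM 6.38%, TMM factors 3.31% and fewer than 2 blood genes 9.18% higher. Leaving out 1 plate gave 4.27% to 13.1% higher, the most without E7.5 lane plate 2, and 5.37% to 6.91% lower. With a plate left out, fewer plates had to share a sign or be free of overlap. Against blood-gene cells, genes from 1 CPM gave 26.9% higher and 8.21% lower, and TMM factors 13.6% lower. Of the named genes called, 11 of 21 between stages, 67 of 76 against all other cells and 69 of 91 against both-marker cells were called in every setting run. None of these ratios changed sign in a setting run. The causes were not tested. No paired analysis was possible because replicate numbers name wells and no result comes from a test. Plates shared by 2 classes of cells were compared within plates. Equal weighting of plates gave no value against blood-gene cells, since no plate held 5 of both.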
